A study of Zea mays with 8 samples.

Results

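Transcript levels in the ovary of well-watered maize were set against those in the basal leaf meristem of well-watered plants of the same inbred line, B73. The comparison used 4 of the 8 libraries of the series: 2 of ovary and 2 of leaf meristem. In the drought arm of the study, irrigation was withheld 2 to 3 days before plants were hand pollinated. All material, well watered or not, came from greenhouse plants collected 24 hours after pollination, and the leaf samples were the bases of the 3 youngest leaves. The remaining 4 libraries, from droughted ovary and droughted leaf meristem, serve here only as libraries of the same 2 tissues that the comparison did not use. The extraction protocol speaks of 2 biological replicates, whereas the series text counts 1 biological replicate per condition, and neither says how many plants went into a library, so the spread between replicates may be technical. The ovary samples are also called cob in the series text, and silk or cob tissue in them is not described.

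A maize ovary holds a single ovule and later becomes the kernel, and its identity is set by floral MADS-box transcription factors that act in combinations. The base of a grass leaf is a zone of dividing and expanding cells, and cells pushed towards the tip green and take on the C4 pathway. In C4 leaves, carbon dioxide is first fixed by phosphoenolpyruvate carboxylase in mesophyll cells and then released again in bundle sheath cells.

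Levels were measured by polyA RNA-seq and deposited as FPKM, fragments per kilobase of transcript scaled to library size, which allows levels of different genes to be compared. Ovary and leaf libraries stand in separate tables, so tissue and table cannot be told apart, and no test across the tissues was made. Of 26380 genes listed for ovary and 25873 for leaf, 23586 were in both tables, and 2 of these were left out because they were extreme in ovary library 2 only, at 7567260 and 912126 FPKM. Each library was scaled by its upper quartile over these shared genes, with factors between 0.928 and 1.080. Levels below are scaled FPKM in library 1 and then library 2, and differences are ovary minus leaf on the log2(scaled FPKM + 1) scale, which understates differences of low genes. Depth is unknown, since FPKM carry no counts. In bulk tissue, fewer cells of a type and less RNA per cell cannot be told apart.

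A gene was called ovary-high or leaf-high when the mean difference was at least 2, a 4-fold difference, and every ovary-leaf pair of libraries differed by more than either pair of replicates did. Of the 21723 genes compared, 1513 were ovary-high, or 6.96% of genes compared, and 1604 were leaf-high, or 7.38%. The median absolute difference between the tissues was 0.72, against a median replicate difference of 0.22 in ovary and 0.22 in leaf. The median difference over all genes was 0.19, so a list with a median near that value stands where genes in general stand. The leaf-high genes reached further: 151 of them differed by at least 5, compared with 41 ovary-high genes. Leaf RNA was also concentrated in fewer genes, with 50% of the summed level held by 985 and 854 genes in leaf and by 1782 and 1469 genes in ovary.

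**Figure D1:**
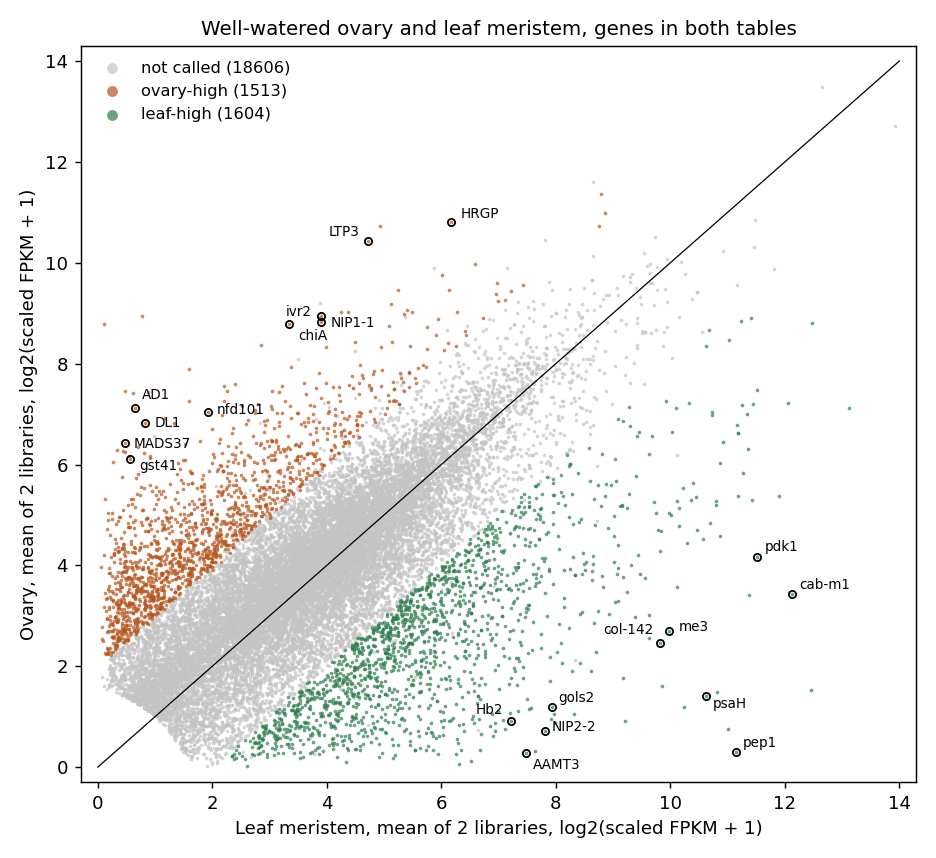
Mean level in leaf meristem (x axis) and ovary (y axis) of the 21723 genes compared, log2(scaled FPKM + 1). Ovary-high genes (orange, 1513) lie above the line of equal level and leaf-high genes (green, 1604) below it; circles name the 10 largest differences each way among named genes.

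The replicates correlated at 0.976 in ovary and 0.967 in leaf (Pearson, log2 scale, across genes, which are not independent). Between tissues the correlation was 0.7042 and 0.7005 for leaf library 1 and 0.648 and 0.639 for leaf library 2. The leaf libraries thus differed in how far they stood from ovary: of the ovary-high genes, 84.8% were higher in leaf library 1 than in leaf library 2, against 50.5% of all genes compared. Leaf library 1 exceeded leaf library 2 by at least 2 for 154 genes, and the reverse held for 20. Of the shared gene IDs, 14763 matched 1 RefSeq gene and 1940 carried a gene name; the genes named below are among the named ones.

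Marker genes were read first. The floral organ gene ZAG1 and the photosynthesis genes followed the labels, as described below, although some other MADS-box genes were leaf-high. The ovule gene zag2 was listed for ovary alone and could not be compared. Many division genes were lower in the leaf meristem libraries than in ovary, while chlorophyll-binding and C4 genes were among the most abundant leaf transcripts. The class I KNOX gene kn1, a shoot meristem regulator normally switched off in leaves, was listed for ovary alone, at 4.88 and 2.35. The ligule genes lg1 and lg2, which mark the blade-sheath boundary, were low in leaf. They stood there at 1.89 and 0.736 (lg1) and at 3.73 and 5.76 (lg2). Neither gene was called at the threshold of 2, so these leaf patterning markers did not single out the leaf libraries. With a threshold of 1, and also with a pseudocount of 0.1, both lg1 and lg2 gained a call. The lg1 call at a threshold of 1 was ovary-high, and the direction of the lg2 call is not given here. The leaf gene rs2 was ovary-high, as described below. The name leaf meristem is kept here as the sampling label; no gene of the division lists was leaf-high. How much of the leaf beyond the meristem was collected is not stated, and the part of such tissue in the photosynthesis and division differences was not tested. Of 3 seed list members and 2 pollen list members in both tables, none was called; the seed members stood between 3.88 and 14 in all 4 libraries, and the profilin gene PRO4 of the pollen list, chosen after its values were seen, stood at 271 and 295 in ovary and 387 and 414 in leaf. The endosperm and embryo genes listed for ovary alone, among them endo1 at 2.01 and 3.38 and glb1 at 0.0740 and 0.368, both chosen after their values were seen, were low.

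MADS-box genes, a list not limited to floral members, separated the tissues in both directions. Of 15 members in both tables, 6 were ovary-high and 5 leaf-high, with a median difference of 1.39. ZAG1, listed as MADS37, is the maize AGAMOUS-like gene of the floral C function; it stood at 89.3 and 80.6 in ovary and at 0.460 and 0.317 in leaf. The difference of 5.95 was far outside the larger replicate difference of 0.15, and the libraries of the tissues did not come near each other. The E-class-like gene zmm31 (m31) stood at 31.8 and 24.9 in ovary and at 0.340 and 0.217 in leaf, a difference of 4.51. MADS18 (m18), a PISTILLATA-like gene of the B function, stood at 140 and 152 against 5.33 and 6.64, a difference of 4.40. A second PISTILLATA-like gene, zmm16 (sts1), stood at 45.5 and 39.5 against 3.65 and 5.63. MADS67 (m28), of the APETALA1 and FRUITFULL group, stood at 140 and 166 against 12.51 and 4.82, with leaf library 2 the lowest. MADS69 (m22) completed the ovary-high members at 35.1 and 37.3 against 5.34 and 7.92. The third PISTILLATA-like gene, zmm29, and the SOC1-like m5, had higher values in both ovary libraries with differences of 1.76 and 1.39, under the size threshold.

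The 5 leaf-high MADS-box genes were as sharply separated. The gene m26 stood at 0.518 and 0.620 in ovary and at 93.1 and 112 in leaf, a difference of -6.04. The gene m21 stood at 3.37 and 2.43 against 178 and 130, a difference of -5.31. The third, zmm19 (m19), is the gene whose ectopic activity in the ear gives the pod corn phenotype Tunicate; it stood at 3.94 and 3.23 in ovary and at 123 and 149 in leaf. The last of the leaf-high members were m20, at 6.04 and 4.97 against 103 and 84.1, and MADS76, at 11.2 and 11.3 against 106 and 122. ZAGL1, at 16.5 and 15.9 in ovary and 20.6 and 19.3 in leaf, and MADS47, below 2.4 in all 4 libraries, were not called.

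A further 19 MADS-box genes were listed in the ovary table only, 17 of them with a mean of at least 10, against 1 gene, m15 at 3.24 and 0.814, in the leaf table only. The rule by which the authors listed a gene is not given in the sources used here; no listed gene was at 0 in more than 2 of a table's 4 libraries. A gene missing from a table therefore cannot be read as absent from the tissue, and no difference is given. The E-class genes were the most abundant of them: a MADS7 ID stood at 365 and 397, the upper floret gene zmm8 or zmm14 (listed as MADS5) at 366 and 335, and zmm6 at 352 and 340. MADS4, of the FRUITFULL group, stood at 332 and 302. Among the C and D genes, the ovule gene zag2 stood at 200 and 162, its close relative m1 (ov23) at 123 and 125, and ZMM2 (listed as MADS35) at 77.4 and 83.0. Another ID named zmm2, also listed for ovary only, stood at 0.572 and 0.644. The AGL6-like gene bde1 (ZAG3) stood at 80.8 and 69.1, the A-function relative zap1 at 38.0 and 41.8, and the B-function gene silky1 (listed as MADS11) at 14.7 and 11.9. The name MADS7 belongs to 2 IDs that share all their names, so reads of near-identical copies may have been divided between them.

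**Figure D2:**
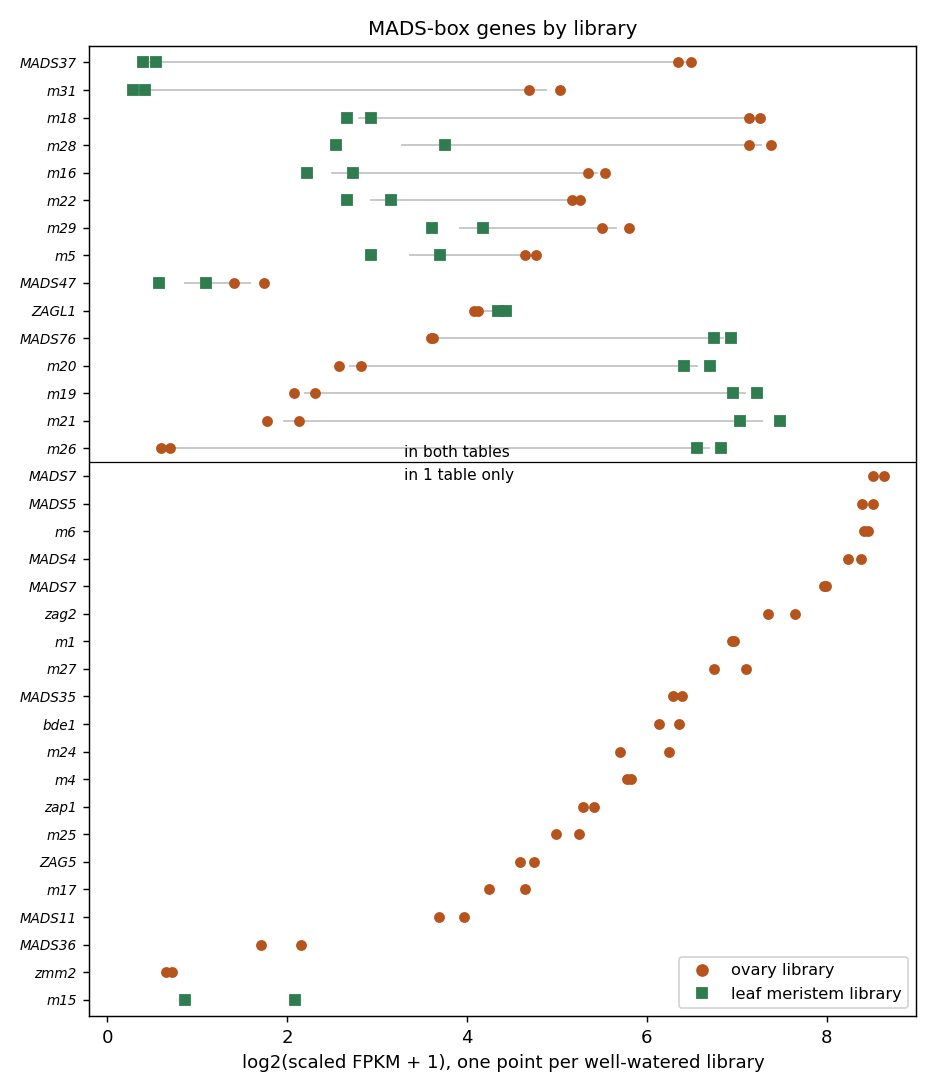
Levels of the 35 MADS-box genes in each well-watered library, log2(scaled FPKM + 1); circles are ovary libraries and squares leaf meristem libraries, and grey lines join tissue means. In the upper block of 15 genes in both tables, 6 are ovary-high and 5 leaf-high; the lower block holds the 19 genes listed for ovary only and the 1 listed for leaf only.

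Lateral organ patterning genes were ovary-high or not called, and none was leaf-high. Of 14 members compared, 6 were ovary-high, and the median difference was 1.803; without leaf library 2 the count was 4, and without leaf library 1 it was 8. YABBY genes, transcription factors of lateral organs, made up 4 of the 6. YAB5 stood at 195 and 238 in ovary and 22.4 and 19.2 in leaf, YAB3 at 115 and 99.9 against 9.31 and 13.3, yabby15 at 43.6 and 44.8 against 6.96 and 5.14, and YAB11 at 102 and 134 against 30.4 and 24.6. The YAB11 call was lost without ovary library 2 and without leaf library 2. YAB6, at 66.7 and 69.5 against 18.0 and 15.7, fell just under the threshold with a difference of 1.95. The YABBY gene DL1, whose rice relative DROOPING LEAF specifies carpels and the midrib, was outside this list and among the largest differences of all: 107 and 117 in ovary against 0.880 and 0.671 in leaf, a difference of 5.99. Both remaining ovary-high members are leaf development genes. The trans-acting siRNA synthesis gene lbl1 (SGS3) stood at 182 and 184 against 16.3 and 9.68, and rs2, the MYB repressor of KNOX genes, at 13.1 and 15.9 against 3.10 and 0.623. The rs2 call was lost without leaf library 2 and with a pseudocount of 0.1. The HD-ZIP III gene rld1 was at 0 in both ovary libraries and at 24.0 and 24.7 in leaf, whereas its relative rld2 stood at 22.4 and 19.8 against 23.5 and 15.8 and was not called. The KANADI genes kan1 and kan3 were between 2.70 and 5.84 in all 4 libraries.

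KNOX and other meristem genes held few calls among those that could be compared. For low genes such as lg4 the scale understates the difference, and lg4 was called with a pseudocount of 0.1. Of 11 members in both tables, 1 was ovary-high, the receptor gene fea3 of the pathway that limits meristem size, at 27.0 and 37.6 against 3.74 and 1.73. The others included knox7 (36.7 and 39.3 against 14.9 and 14.1, a difference of 1.33), lg4 (3.91 and 2.41 against 0.147 and 0.311) and knox6 (20.2 and 20.6 against 31.8 and 30.9). A further 10 meristem genes were listed for ovary only, all with a mean under 10; knox3 stood at 5.09 and 2.05, lg3 at 9.20 and 4.81 and gnarley1 at 1.98 and 0.377. The SBP and growth-regulating factor list had 6 ovary-high genes of 30 and no leaf-high gene, with a median of 0.79. The growth-regulating factor GRF1 was its largest difference at 43.2 and 60.2 against 3.10 and 1.97. The SBP genes ub3, which limits ear row number, and tga1, which controls the glume that covered the kernel of teosinte, stood at 9.38 and 13.2 against 0.400 and 0.211 and at 9.17 and 12.6 against 0.331 and 0.344.

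Cell division genes were higher in ovary, and their leaf levels differed between the leaf libraries. In the DNA replication and cell cycle list, 10 of 24 members compared were ovary-high and none leaf-high, with a median of 1.52. The replication clamp gene pcna2 stood at 31.8 and 31.0 in ovary and at 3.99 and 0.199 in leaf. The leaf libraries differed 2.06 on the log2 scale, yet all ovary-leaf pairs differed by at least 2.68. The pcna2 call was lost with a pseudocount of 0.1. The D-type cyclin cycD1 stood at 11.99 and 13.5 against 0.295 and 0.0734, and the ribonucleotide reductase gene RNRS3 at 24.1 and 31.0 against 3.86 and 0.628. A second clamp gene, pcna1, chosen after its values were seen, stood at 16.7 and 14.4 against 13.01 and 15.95, with overlapping libraries. Of 19 histone and nucleosome assembly genes, all 19 had a positive difference and 6 were ovary-high, with a median of 1.42. The 6 called were core histones, which are made in S phase. The histone H2B gene his2b2 stood at 122 and 137 in ovary and at 10.6 and 0.886 in leaf, and the H3 gene H3C2 at 46.7 and 64.8 against 3.91 and 0.306. An H4 gene, H4C13, stood at 423 and 736 against 53.8 and 13.6; histone copies are near identical, so the division of reads among them is uncertain. The HMG-box gene nfd101, a nucleosome factor outside the list, stood at 147 and 113 against 5.02 and 0.586.

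Tubulins and kinesins followed the division genes: 10 of 20 were ovary-high, none leaf-high, and the median was 2.02. The alpha-tubulin gene tua4 was among the most abundant ovary transcripts at 2406 and 2898, against 560 and 318 in leaf, a difference of 2.64. The beta-tubulin gene TUB1 stood at 84.2 and 96.6 against 4.31 and 2.502, and tub4 at 155 and 225 against 25.0 and 14.7. The kinesin gene krp13 stood at 12.2 and 9.05 against 0.157 and 0.1002. In leaf library 1, 17 of the 20 members were higher than in leaf library 2. The median difference of ovary over leaf was 1.66 measured against leaf library 1 and 2.37 against leaf library 2. For the histones these medians were 1.31 and 1.59, and for the replication list 1.42 and 1.496. Of 5 meiosis genes, 2 were ovary-high: rad51a at 8.598 and 8.99 against 1.196 and 0.358, and ZYP1, a synaptonemal complex gene, at 4.71 and 4.83 against 0.350 and 0.538. The difference of ZYP1, 2.00, sat at the threshold, and the call was lost when any library other than leaf library 2 was left out.

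**Figure D3:**
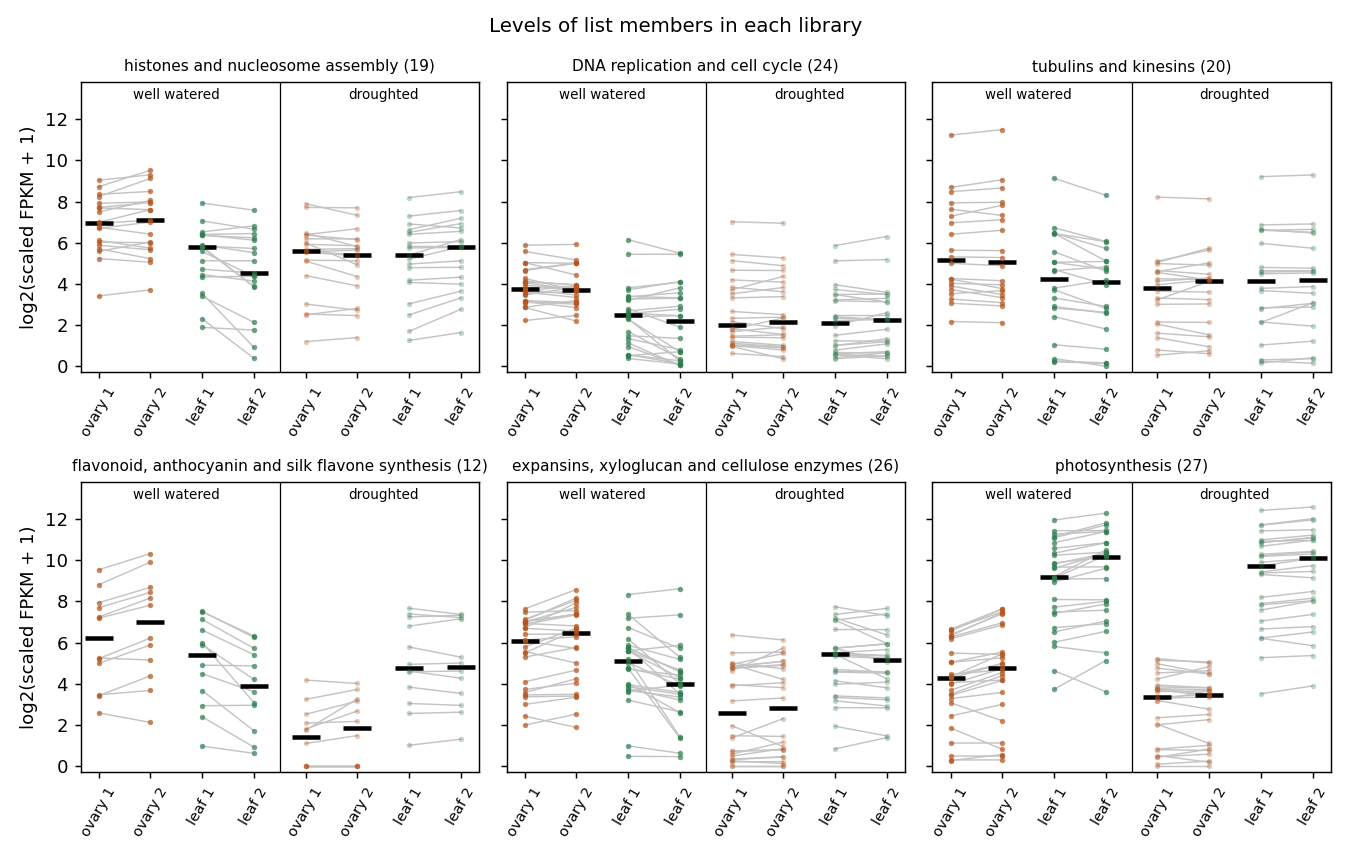
Levels of the members of 6 gene lists in each of the 8 libraries, log2(scaled FPKM + 1); points are genes, grey lines join a gene's replicates and black bars are medians. In well-watered plants the first 5 lists sit higher in both ovary libraries than in leaf and photosynthesis genes sit higher in leaf; several division, wall and flavonoid genes sit lower in leaf library 2 than in leaf library 1.

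Cell wall and surface genes included the largest ovary-high differences. AD1, adherent1, a fatty acid elongase gene needed for the epidermal surface, was the largest among named genes at 111 and 164 in ovary and 1.09 and 0.0548 in leaf, a difference of 6.52. The lipid transfer protein gene LTP3 stood at 1246 and 1514 against 44.6 and 6.36, a difference of 6.23. HRGP, a hydroxyproline-rich wall glycoprotein, stood at 1369 and 2217 against 119.9 and 22.2. In both genes leaf library 2 was the lowest by far, with replicate differences of 2.63 and 2.38. In the cuticle, wax and lipid list, 3 of 11 were ovary-high, none leaf-high; besides LTP3 these were the elongase fae1, at 71.1 and 77.4 against 5.72 and 1.25, and the epidermal HD-ZIP IV gene ocl4, at 7.01 and 6.34 against 0.176 and 0.0474. Of 26 expansin, xyloglucan and cellulose genes compared, 6 were ovary-high and none leaf-high. The ovary-high count was 12 without leaf library 1 and 4 without leaf library 2. A further 2 members, expB3 and CSLD1, were listed for ovary only and 2 for leaf only, and none of these was compared. The leaf-only members, chosen after their values were seen, were expB7 at 295 and 262 and expB5 at 22.5 and 19.7. The wall-loosening expansin expa2 stood at 38.1 and 53.1 against 0.962 and 0.532, and expA4 at 12.1 and 15.3 against 0.382 and 0.368. The cellulose synthase gene CesA-8 stood at 83.6 and 84.4 against 14.9 and 5.03.

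Flavonoid genes had the highest median of the 30 lists, 2.70, with 5 of 12 ovary-high and none leaf-high. A further 4 members, pl1, bz2, r1 and a2, were listed for leaf only and were not compared. The highest of them, pl1, stood at 19.5 and 22.2, and all were named after their values were seen. No member was listed for ovary only. A1, dihydroflavonol reductase, was among the 10 most abundant ovary genes of those named and in both tables, at 743 and 1279, against 138 and 51.7 in leaf. BZ1, the anthocyanin glucosyltransferase, stood at 36.2 and 73.4 against 4.23 and 0.881. The silk flavone gene sm1 (RHM1) stood at 145 and 224 against 21.4 and 11.2. In ovary, library 2 exceeded library 1 for each of these genes; in leaf, library 1 exceeded library 2 for 11 of the 12 members. The list's median was 1.78 against leaf library 1 and 3.39 against leaf library 2. The phenylpropanoid list behaved differently, with 2 of 11 leaf-high and none ovary-high. Its leaf-high members were the cinnamoyl-CoA reductase gene cncr1, at 9.68 and 7.48 in ovary against 185 and 117, and the laccase LAC1, at 4.22 and 5.32 against 21.7 and 26.8. The LAC1 call was lost without ovary library 1, without leaf library 2 and in unscaled FPKM. The phenylalanine ammonia lyase gene pal3, chosen after its values were seen, was listed for ovary only, at 860 and 1704.

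Photosynthesis genes gave the clearest leaf-high list among genes in both tables: 26 of 27 compared were leaf-high, and the median was -4.07. The summed level of these 27 genes was 871 and 1531 in ovary and 26323 and 35049 in leaf. The C4 phosphoenolpyruvate carboxylase gene pep1 was the largest difference among all named genes, at 0.222 and 0.225 in ovary and 1848 and 2684 in leaf, a difference of -10.83. Pyruvate phosphate dikinase (pdk1) stood at 11.8 and 22.3 against 2273 and 3605, and the NADP-malic enzyme gene me3, of the bundle sheath, at 7.42 and 3.57 against 588 and 1437. The light-harvesting gene cab-m1 stood at 8.67 and 10.9 against 3973 and 4999, and the photosystem I gene psaH at 2.60 and 0.751 against 1293 and 1842. Not every member was so low in ovary. Cab-m7 stood there at 93.6 and 197, and the Rubisco small subunit ID GRMZM2G098520, chosen after its values were seen, at 98.8 and 198, against 1212 and 1342 in leaf. In leaf, 24 of 27 members were at least as high in library 2 as in library 1. A further 4 members, FDX1, fdx2, L-FNRI and cab48, were listed for ovary only and were not compared. The highest of them, FDX1, stood at 26.3 and 45.8. The 1 member listed for leaf only, another ID named PGR5, stood at 38.05 and 50.04. All of these were named after their values were seen.

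Carbohydrate genes stood on both sides: of 15 sucrose and hexose genes, 1 was ovary-high and 4 were leaf-high. The vacuolar invertase gene ivr2 was ovary-high at 326 and 584 against 26.0 and 1.72, a difference of 5.67 beside a leaf replicate difference of 3.31. The ivr2 call was lost with a pseudocount of 0.1. The sucrose loader sut1 was leaf-high at 18.0 and 8.32 against 318 and 380, as was sucrose phosphate synthase sps1, at 1.08 and 0.909 against 14.7 and 26.7. The cell wall invertase gene incw1 was also leaf-high, at 7.73 and 5.56 against 35.8 and 35.4. In starch synthesis, 5 of 15 genes were ovary-high and 1 leaf-high. Subunits of ADP-glucose pyrophosphorylase fell on both sides: Agp2 stood at 97.3 and 66.6 against 8.07 and 7.67, AGPLS3 at 9.49 and 8.75 against 0.153 and 0.0573, and GLG1 at 28.5 and 23.5 against 140 and 170. The starch branching enzyme gene ae1 stood at 12.2 and 9.69 against 0.528 and 0.135. The galactinol synthase gene gols2 was leaf-high, at 1.13 and 1.43 against 189 and 295.

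Aquaporins had calls on both sides, with 6 ovary-high and 7 leaf-high of 23. NIP1-1 stood at 384 and 598 in ovary against 20.7 and 7.16, and the plasma membrane member pip2c at 47.2 and 67.2 against 6.97 and 5.62. On the leaf side, NIP2-2 stood at 0.490 and 0.804 against 216 and 229, and NIP2-1 at 0.992 and 1.36 against 162 and 162; NIP2-1 carries the name Lsi1, which in rice is a silicon influx channel. PIP2-6 stood at 4.02 and 2.37 against 211 and 342.

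In the hormone lists the genes called were leaf-high, and no member was ovary-high; the auxin list member abp1 was not compared, being at 0 in both leaf libraries and at 186 and 190 in ovary. Of 38 jasmonate genes, 9 were leaf-high. The lipoxygenase gene lox10, which acts in green leaf volatile synthesis, stood at 78.2 and 140 in ovary and 2675 and 1921 in leaf; the JAZ-type repressor gene TIFY25 stood at 3.75 and 3.53 against 123 and 74.1. Without leaf library 1, 5 jasmonate genes became ovary-high, and without ovary library 1 it was 2. Of 35 abscisic acid and type 2C phosphatase genes, 6 were leaf-high, among them PP2C19 at 9.14 and 9.72 against 57.3 and 102 and the receptor gene PYL9 at 7.41 and 7.98 against 64.3 and 60.01. Of 26 cytokinin genes, 6 were leaf-high, led by the response regulator RR7 at 6.68 and 5.04 against 54.4 and 84.3. Of 31 auxin genes, 3 were leaf-high, a share near that of all genes compared, and 1 became ovary-high without leaf library 1. The largest leaf-high auxin difference was that of the Aux/IAA gene IAA12, at 3.44 and 4.44 against 34.9 and 45.9. Of 5 gibberellin genes, 2 were leaf-high, the synthesis genes an1 (2.62 and 0.855 against 46.4 and 68.9) and d3 (0.844 and 0.514 against 47.5 and 33.6). The shares of leaf-high genes in the auxin and gibberellin lists rest on few genes.

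Some single nitrogen and defence genes also carried sharp differences. Of 21 genes of nitrogen and sulfur assimilation, 2 were ovary-high and 3 leaf-high, with a median of -0.17. The shares over all genes compared were 6.96% and 7.38%, so these few calls do not mark the list as a whole. Of 10 genes of benzoxazinoid synthesis, 2 were leaf-high. Without leaf library 2 the benzoxazinoid list had 4 leaf-high genes, and without leaf library 1 it had 2 ovary-high genes. Nitrate reductase NNR1 stood at 5.71 and 6.27 in ovary and at 123 and 153 in leaf, nitrite reductase NIR at 9.97 and 14.8 against 81.0 and 112, and the glutamine synthetase ID named gln1 at 11.8 and 15.3 against 146 and 106. Asparagine synthetase went the other way: asn3 stood at 23.5 and 19.9 against 2.45 and 0.904, and asn2 at 6.31 and 11.2 against 0.557 and 0.0838. Igl, which like bx1 makes free indole, stood at 0.261 and 0.1003 against 40.1 and 31.0, and the benzoxazinoid oxygenase gene BX4 at 26.1 and 28.7 against 247 and 246. The beta-glucosidase gene glu1, the second most abundant named ovary gene at 2193 and 4048, stood at 661 and 141.7 in leaf. Its difference of 3.28 was not called because the smallest ovary-leaf gap, 1.73, was under the leaf replicate difference of 2.21. It was called when any library other than ovary library 2 was left out. The chitinase gene chiA was ovary-high at 446 and 437 against 14.4 and 3.92, and the glutathione transferase gene gst41 at 60.3 and 76.4 against 0.553 and 0.414. On the leaf side stood the anthranilate methyltransferase gene AAMT3, at 0.206 and 0.218 against 207 and 147, the haemoglobin gene Hb2, at 0.559 and 1.21 against 134 and 160, and the glycine-rich gene col-142, at 8.35 and 0.632 against 1070 and 743. In the leaf table, AAMT3 and col-142 each share their values with another ID, so their leaf levels are not their own alone.

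Heat shock proteins were ovary-high or not called, 4 of 11 with a median of 0.75; hsp18f stood at 46.1 and 82.3 against 7.07 and 4.65, and hsp101, a disaggregase, at 20.7 and 30.2 against 4.33 and 2.44. Without ovary library 2 or without leaf library 2 the count was 2. Ribosomal protein genes stood near the median of all genes at 0.16, with 4 of 35 leaf-high. The members rpl19, at 26.9 and 24.8 against 172 and 169, and rpl29, at 20.0 and 31.9 against 131 and 126, were among the 4; without leaf library 1 the count was 2, and the rpl29 call was lost without ovary library 1. NAC factors had 3 ovary-high and 2 leaf-high genes of 17, and WRKY factors 1 leaf-high gene of 14, WRKY67, whose call was lost without leaf library 1. The 4 dehydrin and LEA genes held no call. Over all genes compared, 6.96% were ovary-high and 7.38% leaf-high. Beside these shares, the few NAC, WRKY and ribosomal calls do not mark their lists as a whole.

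**Figure D4:**
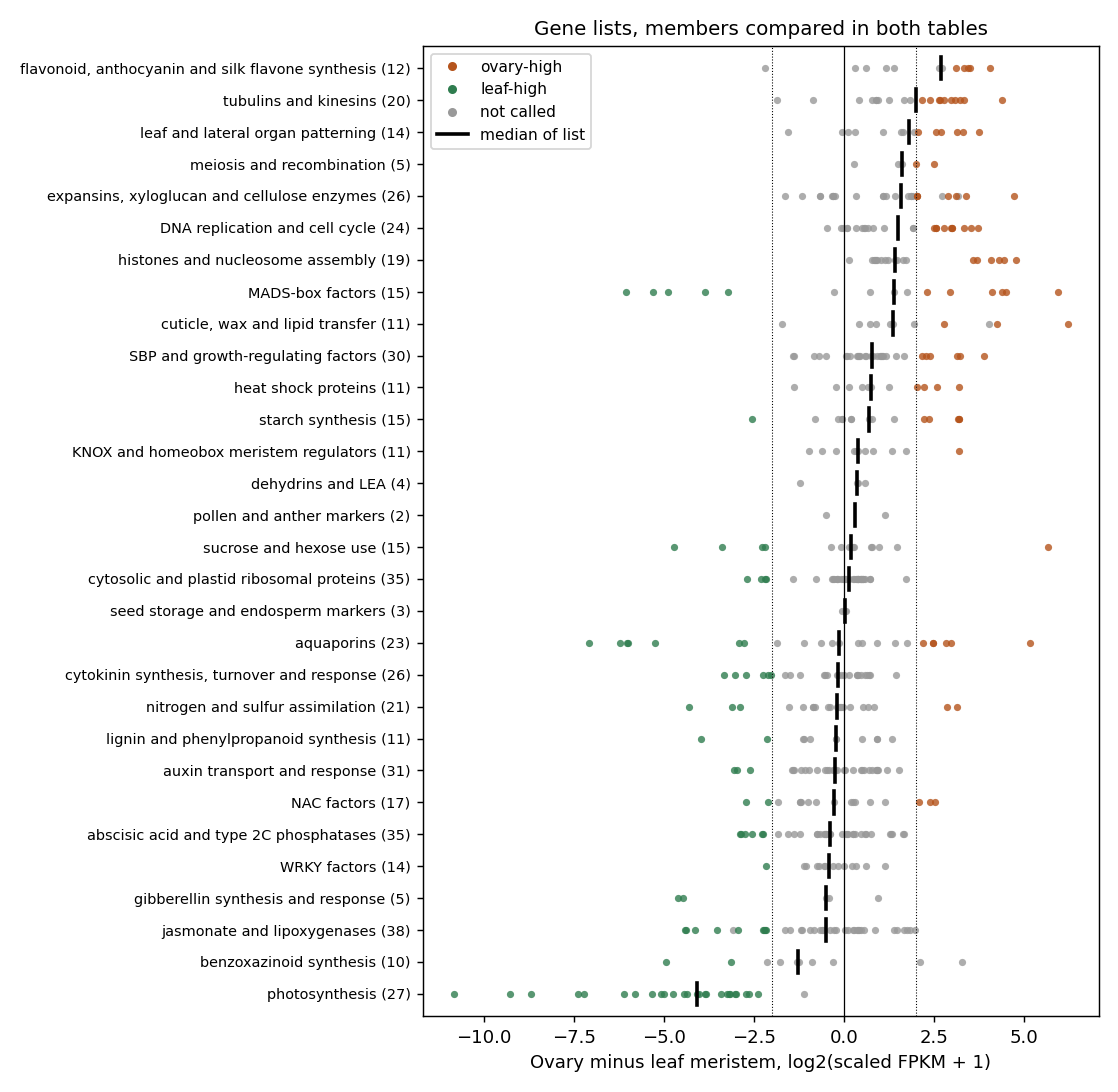
Differences of list members compared in both tables (x axis, ovary minus leaf, log2 scale; n of members in brackets), with the list median as a black bar and dotted lines at the threshold of 2. Photosynthesis genes lie far to the leaf side and flavonoid, tubulin and patterning genes to the ovary side, while MADS-box genes and aquaporins hold calls on both sides.

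The glycine-rich protein gene grp1 was the most abundant named gene in both tissues, at 5701 and 7777 in ovary and 15089 and 16000 in leaf, a difference of -1.22 with libraries that did not overlap. Some abundant genes differed little. Among the 200 most abundant genes, the smallest differences of named genes were those of the vacuolar pyrophosphatase gene vpp2 (313 and 375 against 379 and 303) and a ubiquitin gene, ubiquitin1 (720 and 836 against 805 and 796). The S-adenosylmethionine synthetase gene sam2 stood at 969 and 1197 against 903 and 1073, the chaperone gene cdj2 at 912 and 1010 against 836 and 903, and asr1 at 795 and 1262 against 1314 and 1021. Of these 5, cdj2 had libraries that did not overlap between tissues, and those of the other 4 overlapped. Non-overlap was the usual state, found for 80.9% of all genes compared, so it does not set grp1 or cdj2 apart.

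Genes at 0 in both libraries of a tissue were not compared by fold, because an exact 0 can be a failed estimate. There were 50 such genes at 0 in leaf and 154 at 0 in ovary past the filter on low levels. At 0 in both leaf libraries were AGA1, an alkaline alpha-galactosidase, at 252 and 422 in ovary, the auxin-binding protein gene abp1 at 186 and 190, the sterol reductase gene DWF1 at 154 and 160, the cellulose synthase gene CesA-1 at 70.3 and 62.0, and Ots1c at 34.4 and 33.1. At 0 in both ovary libraries were RPL10, a ribosomal protein gene, at 109 and 107 in leaf, the autophagy gene Atg8b at 102 and 92.2, GNAT42 at 62.4 and 78.9, TPS3 at 53.0 and 69.7, and pcr1 at 46.3 and 32.7. RPL10 and Atg8b belong to processes of every cell. In droughted ovary RPL10 was listed at 43.4 and 55.4, and abp1 in droughted leaf at 165 and 179. Since no listed gene was at 0 in more than 2 of 4 libraries, each of these genes is above 0 in the other condition by the make-up of the table.

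Listing in 1 table alone was common: 2794 genes for ovary and 2287 for leaf, of which 412 and 525 had a mean of at least 10. The following were chosen after their values were seen. Listed for leaf only were bss1 at 5502 and 8691, the cysteine protease gene vignain at 1136 and 1559, the ent-kaurene synthase gene eks1 of gibberellin synthesis at 309 and 354, and the catalase gene cat2 at 56.2 and 139. Ubiquitous functions were among them too, such as the ribosomal protein gene rpl35 at 139 and 149 for leaf only and the elongation factor gene elfa3 at 579 and 589 for ovary only.

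The droughted libraries share no library with the comparison above, and the same rule was applied to them. There, 1008 genes were ovary-high, or 4.7% of 21428 compared, and 1963 were leaf-high, or 9.16%. Of the 1604 genes leaf-high in well-watered plants, 1006 (62.7%) were leaf-high in droughted plants, 7 were ovary-high, 565 were compared and not called, and 26 were not compared. Of the 1513 ovary-high genes, 340 (22.5%) were ovary-high there, 39 were leaf-high, 965 were not called and 169 were not compared. Whether the differences themselves changed with drought was not tested.

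The MADS-box calls were the same in both conditions for all 11 genes called. ZAG1, for example, stood at 47.1 and 58.6 in droughted ovary and at 0.418 and 0.254 in droughted leaf. In photosynthesis, 25 of the 26 leaf-high genes were leaf-high again and 1 was not compared. In the division and growth lists, none of the 10 replication genes, the 6 histones, the 10 tubulins and kinesins or the 6 wall genes that were ovary-high was ovary-high in droughted plants; 3 of the replication genes and 3 of the tubulins and kinesins were not compared there. There the histone his2b2 stood at 7.12 and 5.59 in ovary and 4.63 and 8.97 in leaf, and tua4 at 297 and 279 in ovary and 593 and 628 in leaf. The same held for the 5 flavonoid genes: A1 was at 0 in both droughted ovary libraries and at 202 and 164 in droughted leaf, and of the 5, 2 were leaf-high and 2 not compared. Loss of the ovary-high call was not limited to these lists. None of the 6 ovary-high aquaporins, 1 of them not compared, or of the 3 cuticle, wax and lipid genes was ovary-high again. Of the 6 ovary-high patterning genes 2 were, as were 2 of the 6 SBP and growth-regulating genes. DL1 (40.5 and 40.1 against 0.517 and 0.710), chiA (712 and 1893 against 19.3 and 8.47) and HRGP (1420 and 1615 against 125 and 169.9) were ovary-high in both conditions.

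**Figure D5:**
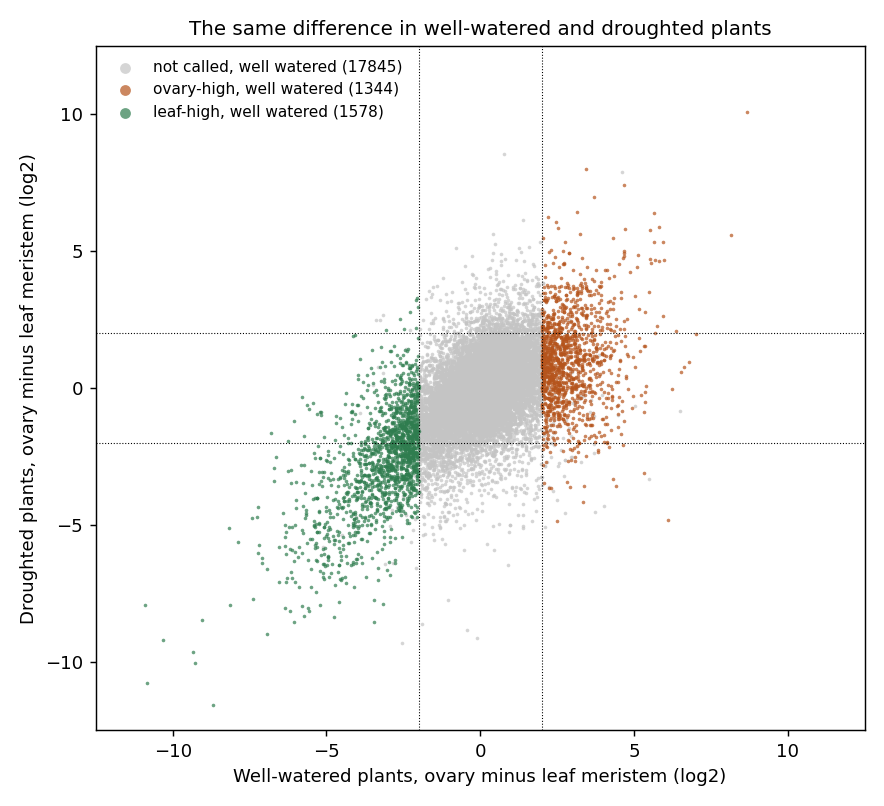
Ovary minus leaf difference in well-watered plants (x axis) and in droughted plants (y axis) for genes compared in both, log2 scale, coloured by the well-watered call; dotted lines mark 2 and -2. Of the leaf-high genes, 62.7% are leaf-high again, whereas 22.5% of the ovary-high genes are ovary-high again and many lie near 0 on the y axis.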

How the data were processed

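PolyA RNA of 4 groups of 2 libraries was sequenced. The authors deposited FPKM per gene in 2 tables, 1 per tissue, made with Cufflinks 1.0.2, TopHat 1.2.0 and CASAVA 1.8 among the tools that the submitters' processing notes name. What each tool did, the genome build and the listing rule are not stated there. Genes were matched by ID. Libraries were scaled to a common 75th percentile over genes above 0 in at least 1 library. Calls needed a mean scaled FPKM of at least 1 over the 4 libraries, a log2(FPKM + 1) difference of at least 2 and non-overlap beyond replicate spread. The replicates give that spread; no p-value was computed, because the tables were made separately. The rule was run on simulated libraries with known folds. All genes there had the same noise, unlike the leaf replicates here, so the run does not measure its errors in these data. Names came from RefSeq synonyms (Zm-B73-REFERENCE-NAM-5.0), without coordinates, and list names were adapted to that table. Genes are named by fixed rules (largest differences overall and per list, most abundant, smallest differences, all MADS-box, meristem and patterning members), exceptions being marked. Members and lists were chosen with earlier results of these data known. Python 3.11.15, pandas 2.3.3 and numpy 2.4.6 were used.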

Additional observations from a re-analysis of the deposited data

Results flagged for a closer look

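Of all genes compared, 39 ovary-high and 7 leaf-high genes of well-watered plants were called the other way in droughted plants. Of these, 4 were members of the gene lists, and the difference between the conditions was not tested for any of them. The silk flavone gene sm1 was ovary-high in well-watered plants, with a difference of 3.46, and leaf-high in droughted plants, with a difference of -2.47; its ovary level was 145 and 224 in well-watered and 3.23 and 3.48 in droughted libraries, while its leaf level was 21.4 and 11.2 and then 22.9 and 23.5. NAC1 (SNAC1, GRMZM2G347043), a stress-related NAC transcription factor, was leaf-high in well-watered plants, with a difference of -2.09, and ovary-high in droughted plants, with a difference of 2.18. Its ovary level was 28.4 and 20.5 in well-watered and 392 and 379 in droughted libraries. The leaf level of NAC1 was 108 and 105 and then 91.9 and 77.2. The NAC1 call in well-watered plants was lost in unscaled FPKM, with a pseudocount of 5, with a threshold of 3 and without ovary library 2. The others were chosen after their values were seen. The chalcone isomerase gene chi1, of flavonoid synthesis, had a difference of 3.35 in well-watered and -4.15 in droughted plants; its ovary level was 449 and 959 and then 4.70 and 7.86, and its leaf level 96.4 and 41.4 and then 110.2 and 141.5. The beta-tubulin gene tub6 had a difference of 3.08 in well-watered and -2.52 in droughted plants; its ovary level was 412 and 534 and then 22.5 and 17.3, and its leaf level 87.3 and 33.8 and then 115.6 and 119.7.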

How the results depend on the processing

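No paired analysis was possible because no test was made and the replicate numbers only name libraries of different tissues. The counts of 1513 ovary-high and 1604 leaf-high genes moved by more than 1.5 times only with a pseudocount of 5 (607 and 938), a threshold of 1 (4016 and 3336) or a threshold of 3 (559 and 717). Under the other scalings, filters and treatments of zeros they ran from 1257 to 2036 and from 1462 to 1969. Leaving out 1 library gave 1362 to 1912 ovary-high genes, the highest without leaf library 1, and 1587 to 1741 leaf-high genes; with 1 library left in a tissue, its spread is taken from the other tissue. The genes at 0 in leaf numbered 49 to 96 when 1 library was left out, the 96 without leaf library 1, and those at 0 in ovary 148 to 174. Genes whose ovary ranks lay above all leaf ranks numbered 9721, and 10585 to 11073 with 1 library left out; the reverse held for 7641, and 8378 to 8905. No called gene named here changed direction; of 110, 33 lost the call with a threshold of 3, 27 with a pseudocount of 5, and leaving out 1 library lost between 3 and 5. With a pseudocount of 0.1, 3 of the 110 lost the call, namely ivr2, pcna2 and rs2. The medians of the aquaporin, phenylpropanoid, dehydrin, seed and pollen lists changed sign under at least 1 setting. Alternatives on droughted libraries, on the extreme genes, on genes at 0 and on IDs that share values (1506 and 1586 when counted once) were chosen after seeing the data. Depth is unknown, so the precision of low levels cannot be given.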
